A study of Mus musculus with 1483 samples.

Results

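The cells described here are somatostatin (Sst) interneurons of the mouse primary visual cortex in which the heparanase gene Hpse was detected. A cell was counted among them when the deposited table gave it at least 100 CPM of Gad1, under 10 CPM of Slc17a7, at least 300 CPM of Sst, under 300 CPM each of Pvalb and Vip, and at least 10 CPM of Hpse. CPM is the number of reads on a gene for every 1000000 reads of the cell. Of the 1483 cells in the table, 245 met the gates on Gad1, Slc17a7, Sst, Pvalb and Vip, and 79 of these held Hpse at or above its limit. The other 166 Sst cells, under the same gates but with Hpse below 10 CPM, served as the comparison, and the mouse was the unit of every test. The 79 cells are called Hpse-positive and the 166 cells Hpse-negative throughout.

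All cells came from the visual cortex (labelled VISp) of C57Bl/6J mice that carried a virus (AAV) with 1 of 11 enhancers driving the fluorescent protein SYFP2; fluorescent cells were sorted singly and their polyA RNA was amplified with the SMARTerv4 kit. The enhancers are labelled eHGT_017h, eHGT_019h, eHGT_023h, eHGT_058h, eHGT_064h, eHGT_078h, eHGT_079h, eHGT_082h, eHGT_128h, eHGT_140h and hDLXI56i, and each of the 33 mice received 1 of them; no age is given in the labels. Both arms of the comparison therefore share strain, tissue, virus and sort, and both arms within a mouse share the enhancer. The cells are those in which an enhancer was active enough for sorting, so that shares of cells below are shares of sorted cells and not of the tissue.

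Sst interneurons are inhibitory neurons that arise in the medial ganglionic eminence and mostly contact the dendrites of other neurons. Catalogues of cortical cell types divide them into many types, and several of these carry Hpse in their names. Heparanase, the product of Hpse, is the endoglucuronidase that cleaves the heparan sulfate chains of cell surface and matrix proteoglycans, and these chains are built and modified by separate families of polymerases and sulfotransferases. Many Sst cells also make further neuropeptides, among them prodynorphin and prepronociceptin, which are precursors of ligands for opioid-family receptors.

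Hpse lies on the minus strand at chr5:100679484-100719716 (GRCm38, ENSMUSG00000035273.14), Pdyn, the prodynorphin gene, on the minus strand at chr2:129686565-129699844, and Syt6, the synaptotagmin gene with the largest rise among the genes named by the rule given with the methods, on the plus strand at chr3:103575231-103645569. The 250 bases before the RefSeq start of each (RefSeq, GRCm38.p6) are printed because the report turns on the gene that chose the cells, on its peptide partner and on that synaptotagmin. Capitals mark GAAAGTG, a core found in sites bound by the factor that Prdm1 encodes, or TGACGTCA, the cyclic AMP response element; both strands were searched, TGACGTCA reads the same on both, and the motifs do not overlap each other here.
Hpse, chr5:100719717-100719966, minus strand: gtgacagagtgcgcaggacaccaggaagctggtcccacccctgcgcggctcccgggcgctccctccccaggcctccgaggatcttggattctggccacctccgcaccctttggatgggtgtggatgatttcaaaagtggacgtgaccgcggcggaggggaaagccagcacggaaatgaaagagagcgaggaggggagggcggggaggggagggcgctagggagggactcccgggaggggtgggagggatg
Pdyn, chr2:129699939-129700188, minus strand: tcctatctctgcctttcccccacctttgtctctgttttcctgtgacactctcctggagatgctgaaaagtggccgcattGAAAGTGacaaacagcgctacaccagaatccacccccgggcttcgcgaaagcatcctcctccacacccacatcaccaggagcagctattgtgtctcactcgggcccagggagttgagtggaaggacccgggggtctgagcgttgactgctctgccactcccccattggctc
Syt6, chr3:103574995-103575244, plus strand: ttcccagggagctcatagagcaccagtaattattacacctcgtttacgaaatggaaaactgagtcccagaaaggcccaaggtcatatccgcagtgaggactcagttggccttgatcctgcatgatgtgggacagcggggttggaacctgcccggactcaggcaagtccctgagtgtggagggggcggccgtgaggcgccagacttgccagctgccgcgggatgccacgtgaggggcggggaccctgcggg
GAAAGTG occurred once in the Pdyn window, 171 bases before the start, and neither motif occurred in the Hpse or Syt6 window. Over all 27025 promoter windows of the same length, GAAAGTG occurred in 3.95% and TGACGTCA in 1.60%. Among the genes tested below that have a window, GAAAGTG occurred in 4 of 45 called higher in Hpse-positive cells (8.89%), in 11 of 123 called lower (8.94%) and in 3.83% of all 9061. TGACGTCA occurred in 1 of 45, 4 of 123 and 2.96% of the same sets. These are counts of letters in a window.

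Depth was similar in both arms. The total per Hpse-positive cell ran from 271677 to 879654 reads with a median of 575914, and that of Hpse-negative cells from 80918 to 955975 with a median of 554578. For the 11 mice with at least 3 cells in both arms, the median over cells was taken per mouse and arm. The mean of these medians was 576999 ± 71983 reads (SD over mice) in Hpse-positive and 562311 ± 59639 in Hpse-negative cells. The positive arm was higher in 9 of 11 mice (two-sided exact permutation test within mice, p = 0.277). The number of genes with a read, summarised in the same way, was 9519 ± 462 and 9399 ± 265 (p = 0.296, the same test). The 79 cells came from 21 mice and 8 enhancers, no cell name occurred more than once, and the letter after the prefix SM- of the cell name was G for 51 of them and J for 28. What those letters stand for is not given in the sources used here. The comparison of Hpse-positive with all Hpse-negative cells is given within each letter below. All eHGT_017h and hDLXI56i mice were of letter G and all eHGT_023h mice of letter J. Differences of these enhancers cannot be told apart from the letter.

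Hpse was listed at 0 in most negative cells, while a few cells of both arms lay near the limit. In the 79 positive cells it ran from 11.7 to 528 CPM with a median of 126 CPM and quartiles of 49.5 and 235 CPM, which is 5 to 457 reads with a median of 61. In 163 of the 166 negative cells it was listed at 0, and the remaining 3 held 9.95, 9.29 and 3.27 CPM, or 6, 6 and 2 reads. The 5 positive cells nearest the limit held 11.7, 13.8, 15.2, 15.7 and 15.8 CPM. These values chose the cells and are given as a description. A value of 0 allows up to 3 reads, which corresponds to 3.14 to 37.1 CPM in the negative cells at 0 with a median of 5.45 CPM, and 6 of those cells were too shallow for that limit to lie below 10 CPM. Floors and intervals cover counting error only.

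**Figure D1:**
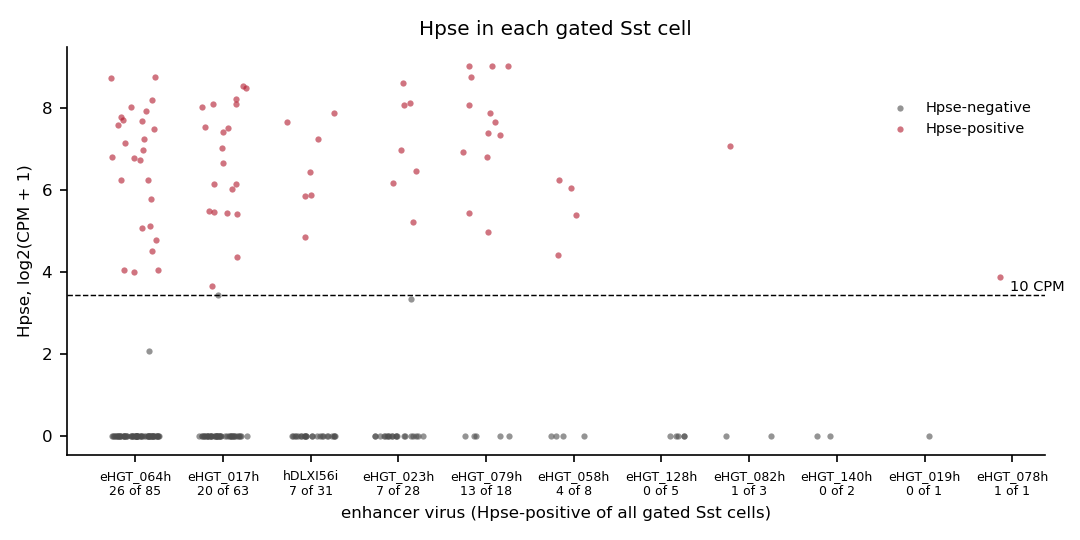
Hpse level of each of the 245 gated Sst cells, by enhancer, as log2(CPM + 1), with each point 1 cell, Hpse-positive cells in red and the dashed line at 10 CPM. The positive cells spread from 11.7 to 528 CPM while 163 of 166 negative cells sit at 0.

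Outside these gates Hpse was rare. It reached 10 CPM in 9 of 1238 other cells (0.727%), among them 2 of 642 Gad1 cells with Pvalb, 1 of 50 with Vip, 0 of 188 Gad1 cells with Sst, Pvalb and Vip all under 300 CPM (exact 95% interval 0 to 1.94%), and 6 of 357 cells with Slc17a7. Both Pvalb cells and 4 of the 6 Slc17a7 cells also held at least 300 CPM of Sst. Median depths were 601286, 579100, 579591 and 585520 reads in these 4 classes against 565909 in the gated Sst cells, 32.2% of which held Hpse.

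The defining genes of Sst interneurons were present in both arms. Over the 11 mice, Sst ran from 9656 to 18369 CPM with a median of 12674 in Hpse-positive and from 7692 to 13318 with a median of 10843 in Hpse-negative cells, which is part of the gate and was not tested. Lhx6, the factor of the medial ganglionic eminence lineage, had medians of 161 and 164 CPM (log2 difference −0.01, adjusted p = 0.984). Sox6, which acts with it, had medians of 133 and 130 CPM (adjusted p = 0.841). Pvalb, held under 300 CPM by the gate, was 7.2 to 56.3 CPM with a median of 17.8 in positive and 16 to 107 CPM with a median of 44 in negative cells, and was lower in the positive arm in 11 of 11 mice. Of the genes given together with the rule as marks of these cells, Pdyn, Syndig1l and Prdm1 were tested and all 3 passed as higher, which is no independent support because they were chosen from results of these data.

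Hpse-positive cells took a different share of the sorted Sst cells under different enhancers. They made up 13 of 18 gated Sst cells under eHGT_079h (72.2%, exact 95% interval 46.5 to 90.3%), 20 of 63 under eHGT_017h (31.7%), 26 of 85 under eHGT_064h (30.6%), 7 of 28 under eHGT_023h (25%) and 7 of 31 under hDLXI56i (22.6%). The other enhancers gave under 10 gated cells each, with 4 of 8 for eHGT_058h, 1 of 3 for eHGT_082h, 1 of 1 for eHGT_078h, 0 of 5 for eHGT_128h, 0 of 2 for eHGT_140h and 0 of 1 for eHGT_019h. A share of 0 of 5 allows up to 52.2% by the exact interval, so absence cannot be read from the last 3.

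Over mice with at least 5 gated Sst cells, the share was 66.7 and 80% in the 2 mice of eHGT_079h (73.3% ± 9.43, SD), 30.6% ± 11.9 in the 3 of eHGT_017h, 26.5% ± 14.3 in the 3 of eHGT_023h, 30.6% ± 7.22 in the 4 of eHGT_064h and 21.8% ± 2.50 in the 2 of hDLXI56i. Both eHGT_079h mice lay above every other mouse. The 5 enhancers differed as a set (permutation test over 14 mice, p = 0.0165), and leaving out either eHGT_079h mouse, which removes that enhancer, gave p = 0.744. The eHGT_079h mice exceeded the mean of the other mice, 28.1%, by 45.2 percentage points (two-sided exact permutation test, p = 0.0110, the smallest that 91 arrangements allow), with an adjusted p of 0.0549 over the 5 enhancers, which does not pass. With 2 mice, 1 enhancer standing out alone could not have passed, because the smallest p gives this adjusted value. When mice with 3 or 4 gated cells were added, the difference was 43.6 points with 3 eHGT_079h mice and the adjusted p was 0.0147. The added eHGT_079h mouse stood at 75% of 4 gated cells. An added eHGT_058h mouse stood at 66.7% of 3, level with the lower of the first 2 eHGT_079h mice. The other added mice stood at 25% of 4. For the other 4 enhancers the differences from the remaining mice were −5.0 (eHGT_017h), −10.2 (eHGT_023h), −5.60 (eHGT_064h) and −14.9 points (hDLXI56i), with adjusted exact permutation p of 0.775, 0.742, 0.775 and 0.742.

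**Figure D2:**
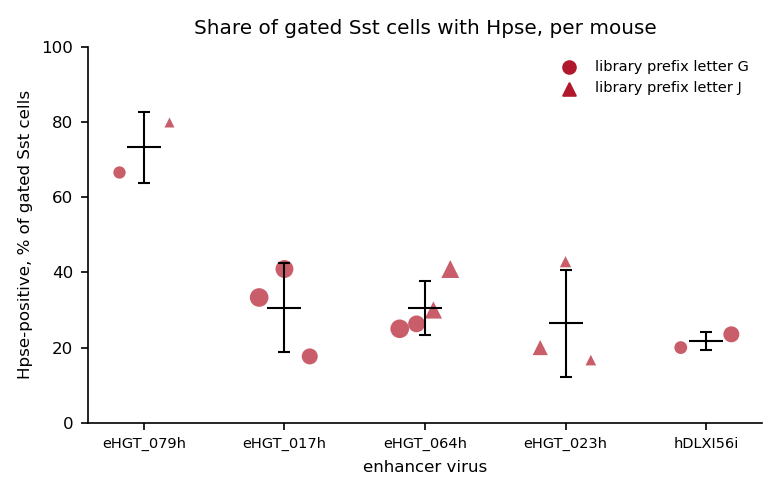
Share of gated Sst cells that were Hpse-positive, in percent, with each point 1 mouse of at least 5 gated cells, sized by its number of gated cells and shaped by library letter; bars show mean and SD of each enhancer. The 2 eHGT_079h mice, at 66.7 and 80%, lie above all 12 other mice.

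Against the Hpse-negative Sst cells of the same mice, Hpse-positive cells held more transcript of the opioid-family peptide precursors Pnoc and Pdyn, of Syt6, of the matrix protein gene Npnt, of the heparan sulfate sulfotransferase gene Hs3st1 and of the carbonic anhydrases Car2 and Car4. They held less of the factor Etv1, of the calcium-binding protein gene Necab1, of the GABA-A receptor subunit genes Gabrb1, Gabra4, Gabrg3 and Gabra5, and of the adhesion gene Alcam. The comparison used 11 mice (3 of eHGT_017h, 2 of eHGT_023h, 4 of eHGT_064h, 1 of eHGT_079h and 1 of hDLXI56i) with 62 positive and 134 negative cells. A gene was called when the limma adjusted p was under 0.05 and the log2 difference between arms was at least 1 in size, on the scale of log2(mean CPM of a mouse + 1), which understates differences of low genes. Of 12364 genes tested, 240 were called (1.94%), 59 higher (0.477%) and 181 lower (1.46%) in Hpse-positive cells, and 1798 had an unadjusted p under 0.05. The median log2 difference over all genes was −0.07. The ranges of the arms over mice did not overlap for 18 genes (0.146%).

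The split between higher and lower calls changed with how cells were averaged. The negative arm held more cells in 10 of the 11 mice, 3 to 18 against 3 to 9. With equal numbers of cells in both arms of each mouse, which also leaves fewer cells, 57 genes were called higher and 67 lower, and 42 and 63 of these were also called with all cells. Averaging log2 values over cells in place of CPM gave 157 higher and 104 lower, and limma voom on the recovered reads gave 68 higher and 118 lower. The excess of lower over higher calls depended on these choices.

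**Figure D3:**
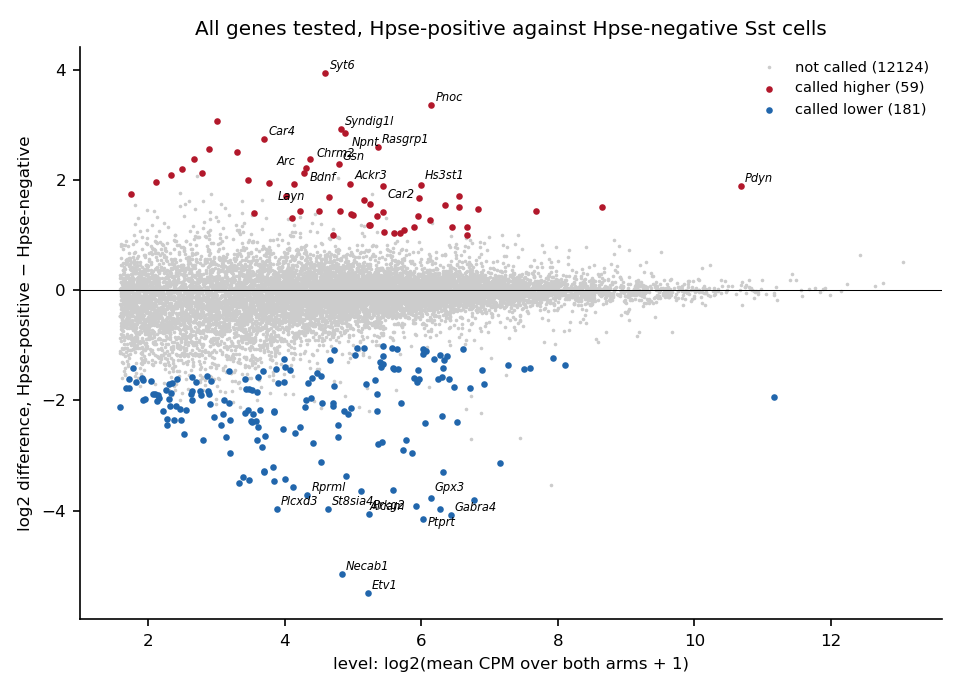
Log2 difference between Hpse-positive and Hpse-negative Sst cells (vertical) against level, as log2 of the mean CPM over both arms + 1 (horizontal), for the 12364 genes tested in 11 mice, with the 59 called higher and 181 called lower coloured and the genes named by rule labelled. Syt6 and Pnoc stand at the top, Etv1 and Necab1 at the bottom.

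Pnoc and Pdyn, genes of opioid-family peptide precursors, were both higher. Pnoc, at chr14:65400673-65425472 (GRCm38, minus strand), which encodes prepronociceptin, ran from 62.0 to 312 CPM with a median of 98.6 in Hpse-positive cells and from 0.749 to 45.7 CPM with a median of 10.4 in Hpse-negative cells. The lowest positive mouse lay above the highest negative one, and the log2 difference was 3.37 (SE 0.41, adjusted p = 0.000113). Pdyn ran from 1375 to 3725 CPM with a median of 2337 in positive and from 297 to 1924 CPM with a median of 646 in negative cells. It was higher in 11 of 11 mice although the ranges overlapped, with the 3 eHGT_017h mice highest among the negative values, and the log2 difference was 1.89 (SE 0.27, adjusted p = 0.00347). The call of Pdyn ended in the 6 mice with at least 5 cells in both arms.

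Syt6, a synaptotagmin of vesicle fusion, ran from 9.17 to 98.3 CPM with a median of 36.2 in positive and from 0 to 7.26 CPM with a median of 0.917 in negative cells. These ranges did not overlap, and the log2 difference was 3.95 (SE 0.46, adjusted p = 8.10e-05). Syndig1l, related to the synapse differentiation inducer Syndig1, ran from 6.15 to 111 CPM with a median of 47.1 against 0 to 28.6 CPM with a median of 4.71. It was higher in 11 of 11 mice (log2 difference 2.93, SE 0.50, adjusted p = 0.00233). Bdnf, the neurotrophin, had medians of 19.4 and 5.38 CPM (2.13 on the log2 scale, adjusted p = 0.00797), and Arc, an activity-regulated gene, 21.8 and 1.72 CPM (2.23, adjusted p = 0.0145). Arc was lower in positive cells in 2 of 11 mice, and its call ended under 11 of 32 alternatives. It was the only call among 13 tested of 14 listed immediate early genes, where 1.94% of all genes were called. The median log2 difference of that list was −0.19. Its summed level had medians of 301 CPM in positive and 369 CPM in negative cells, and was higher in positive cells in 4 of 11 mice.

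Among genes of the matrix and of heparan sulfate, Npnt, which encodes the integrin ligand nephronectin, ran from 26.2 to 103 CPM with a median of 51.6 in positive and from 1.91 to 13.2 CPM with a median of 5.93 in negative cells. No negative mouse reached the lowest positive one (log2 difference 2.85, SE 0.34, adjusted p = 0.000110). Hs3st1, the sulfotransferase that adds 3-O-sulfate groups to heparan sulfate, ran from 65.2 to 184 CPM with a median of 91.8 against 13.1 to 62.0 CPM with a median of 22.2. Its ranges did not overlap either (log2 difference 1.91, SE 0.22, adjusted p = 8.10e-05). Layn, which encodes the hyaluronan receptor layilin, had medians of 21.2 and 7.41 CPM and passed narrowly (1.94, adjusted p = 0.0474). Its call ended when any 1 of 10 mice was left out, with adjusted p up to 0.113, and held only without 1 of the eHGT_064h mice.

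Car2, a cytosolic carbonic anhydrase, ran from 33.1 to 225 CPM with a median of 57.4 against 7.74 to 27.8 CPM with a median of 17.3, without overlap (log2 difference 1.90, SE 0.22, adjusted p = 8.10e-05). Car4, a carbonic anhydrase anchored at the cell surface, had medians of 16.9 and 1.52 CPM (2.75, adjusted p = 0.00140). Both enzymes interconvert carbon dioxide and bicarbonate. The muscarinic acetylcholine receptor gene Chrm2 had medians of 33.5 and 4.04 CPM (2.38, adjusted p = 0.00666). Rasgrp1, an activator of Ras, had medians of 55.4 and 14.5 CPM (2.60, adjusted p = 0.00677), and Ackr3, an atypical chemokine receptor that binds Cxcl12, 34.1 and 12.5 CPM (1.94, adjusted p = 0.000721). Gsn, the actin-severing protein gelsolin, had medians of 32.9 and 5.38 CPM (2.30, adjusted p = 0.00822). Prdm1, a repressor of the PR domain family, had medians of 21.6 and 7.49 CPM with an adjusted p of 0.0455, and its call ended without any 1 of 10 mice (adjusted p up to 0.108) and held only without 1 of the eHGT_023h mice.

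Among the lower genes named by the rule, Etv1 and Necab1 had the largest fitted falls. Etv1, an ETS family factor at chr12:38779380-38870484 (plus strand), ran from 27.5 to 137 CPM with a median of 67.9 in negative cells and from 0 to 13.9 CPM in positive cells, where 8 of the 11 mice were listed at 0. No ranges overlapped, and the log2 difference was −5.50 (SE 0.38, adjusted p = 5.00e-07). Necab1, which encodes a neuronal calcium-binding protein and lies at chr4:14952245-15149794 (minus strand), was listed at 0 in the positive cells of all 11 mice, so no fold is given. In negative cells it ran from 0 to 172 CPM with a median of 42.2, and it was lower in the positive arm in 10 of 11 mice (adjusted p = 3.02e-05).

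**Figure D4:**
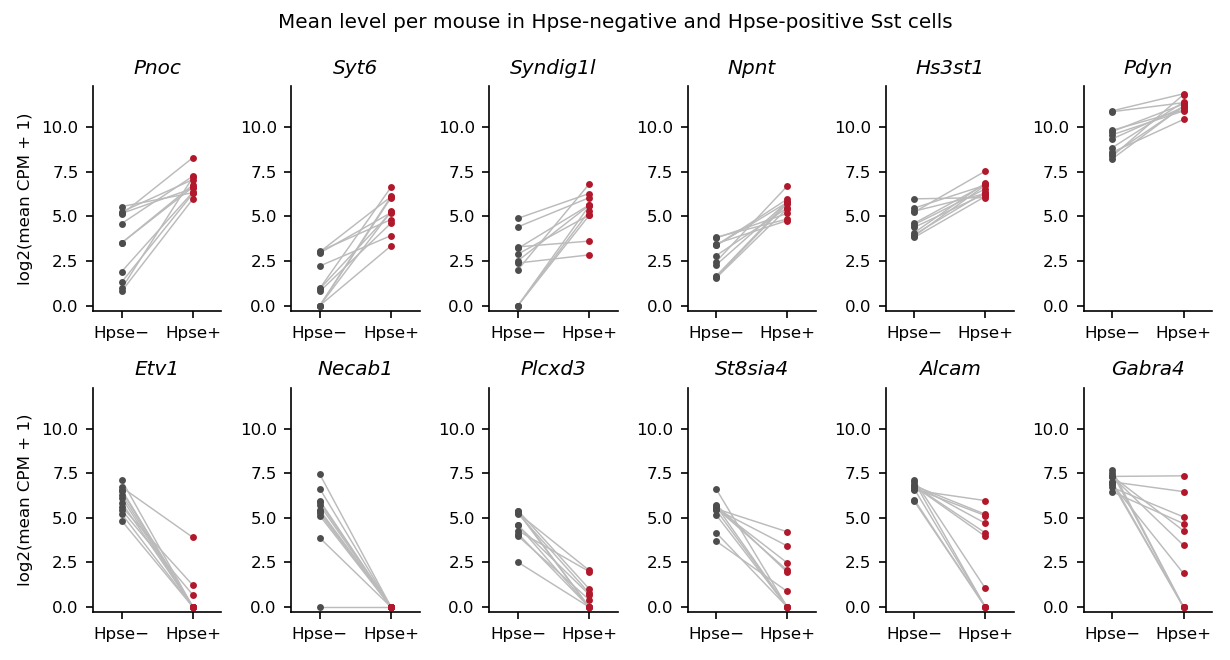
Level per mouse, as log2(mean CPM + 1), in Hpse-negative (grey) and Hpse-positive (red) Sst cells for 12 genes, with each line joining both arms of 1 of 11 mice. Pnoc, Syt6 and Hs3st1 are higher and Etv1 is lower in Hpse-positive cells in all 11 mice.

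The rule named 7 further genes among those lower. Prkg2, a cyclic GMP-dependent kinase, ran from 0 to 51.4 CPM with a median of 1.77 against 24.9 to 125 CPM with a median of 57.7 (log2 difference −4.05, SE 0.54, adjusted p = 0.000239). Plcxd3, which holds a phospholipase C domain, ran from 0 to 3.16 CPM against 4.71 to 41.5 CPM, without overlap (−3.97, SE 0.37, adjusted p = 1.89e-05). St8sia4, the enzyme that adds polysialic acid to the neural cell adhesion molecule, had medians of 0.832 and 44.5 CPM (−3.97, adjusted p = 8.10e-05), and Alcam, a cell adhesion molecule, 14.5 and 109 CPM (−3.91, adjusted p = 0.00124). All 4 were lower in 11 of 11 mice. Rprml, a relative of the growth arrest gene Rprm, had medians of 0 and 34.1 CPM (−3.72, adjusted p = 0.000113). Ptprt, a receptor phosphatase of cell contacts, had medians of 0 and 114 CPM (−3.98, adjusted p = 0.0102), and Gpx3, a secreted glutathione peroxidase, 2.30 and 114 CPM (−3.77, adjusted p = 0.00314). Leaving out the 2 eHGT_023h mice ended the calls of Ptprt (adjusted p = 0.0665) and Gpx3 (0.0610), and both also ended under voom.

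Of the 25 genes named by the rule, 24 stayed called without each mouse in turn, and 6, Pnoc, Etv1, Necab1, Prkg2, Plcxd3 and St8sia4, stayed called under every alternative run. Without the 4 eHGT_064h mice 17 stayed called, and the calls of Syndig1l, Car4, Rasgrp1, Chrm2, Gsn, Arc, Bdnf and Layn ended (adjusted p from 0.0501 to 0.190). With equal numbers of cells the calls of Arc, Layn, Ackr3 and Rprml ended (adjusted p = 0.179, 0.131, 0.0509 and 0.0787). None changed direction. Within the 7 mice of letter G 14 of the 25 were called and within the 4 mice of letter J 8, and the log2 differences within G and J were 3.32 and 3.46 for Pnoc, 4.27 and 3.38 for Syt6, 2.12 and 1.55 for Hs3st1, 1.69 and 2.22 for Pdyn, and −5.56 and −5.39 for Etv1. The call of Pdyn ended in both letters (adjusted p = 0.0758 and 0.150), and those of Syt6 (0.0862) and Hs3st1 (0.192) ended in J. Exons of Syt6, Syndig1l, Chrm2, Bdnf, Necab1, Gabra4, Gabrb1, Gabra5, Penk, Oprm1, Reln, Tox, Nr2f2 and Sp9 overlap a gene on the opposite strand, and the libraries do not mark strand, so reads there cannot be told apart.

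Gene lists assembled for these cells held 55 called members, of which 35 stayed called without each mouse in turn and 20 lost the call without at least 1 mouse. Without the 4 eHGT_064h mice 20 of the 55 stayed called, with equal numbers of cells 31, within letter G 17 and within letter J 13, and 7 stayed called under every alternative. The counts of each list stand beside 0.477% of all genes called higher and 1.46% called lower. Among 18 neuropeptide genes 10 were tested, 2 were higher (Pdyn and Pnoc) and 4 lower (Tac1, Penk, Cck and Grp), with a median log2 difference of −1.40 against −0.07 for all genes. Penk, which encodes proenkephalin, ran from 0 to 15.2 CPM with a median of 0 in positive and from 0 to 160 CPM with a median of 17.4 in negative cells (log2 difference −3.11, SE 0.68, adjusted p = 0.0134). Tac1, the substance P precursor, ran from 0 to 0.908 CPM against 0 to 549 CPM with a median of 63.2 (−4.15, SE 0.90, adjusted p = 0.0134). Both calls ended with equal numbers of cells (adjusted p = 0.0524 for Penk and 0.353 for Tac1), where the difference of Tac1 was −2.32. They also ended without the 4 eHGT_064h mice (adjusted p = 0.319 and 0.420; Tac1 at −2.17) and within each letter. Cck and Grp were low, with highest negative mice of 17.7 and 14.7 CPM, and lost the call without any 1 of 5 and 6 mice (adjusted p up to 0.0636 and 0.0547). Npy, which many Sst cells make, had medians of 3608 and 3803 CPM (log2 difference 0.04, SE 0.23, adjusted p = 0.975), and Cort, the close relative of Sst, 189 and 417 CPM (−0.58, SE 0.27, adjusted p = 0.350).

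Of 26 listed peptide receptor genes 16 were tested, with 2 higher, 4 lower and a median of −0.87, beside 59 higher and 181 lower over all genes. Oprm1, the mu opioid receptor gene, ran from 0 to 88.8 CPM with a median of 19.5 in positive and from 26.8 to 192 CPM with a median of 98.7 in negative cells. It was lower in 11 of 11 mice with overlapping ranges (log2 difference −2.41, SE 0.33, adjusted p = 0.000304). Sstr1, a somatostatin receptor gene, had medians of 3.24 and 23.8 CPM (−2.12, adjusted p = 0.00604). Npy2r, a neuropeptide Y receptor gene, had medians of 0 and 11.1 CPM (−2.95, adjusted p = 0.00354), and Rxfp3, a relaxin family receptor gene, 19.5 and 78.1 CPM (−2.72, adjusted p = 0.00861). Without the 4 eHGT_064h mice the calls of Sstr1, Npy2r and Rxfp3 ended (adjusted p = 0.0729, 0.175 and 0.117). Oprk1, the receptor at which dynorphin acts, was higher, with medians of 18.5 and 2.96 CPM (1.94, SE 0.49, adjusted p = 0.0335), but the call ended without any 1 of 7 mice (adjusted p up to 0.0831). Mchr1, the melanin-concentrating hormone receptor gene, had medians of 14.2 and 5.68 CPM, and its call ended without any 1 of 9 mice (adjusted p up to 0.0902).

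All 17 genes of GABA receptors and transport were tested, with 1 higher, 4 lower and a median of −0.03, where 0.477% of all genes were higher and 1.46% lower. Gabrb1, a beta subunit of GABA-A receptors at chr5:71658113-72149037 (plus strand), ran from 0 to 66.7 CPM with a median of 19.1 in positive and from 82.8 to 216 CPM with a median of 130 in negative cells. Its ranges did not overlap (log2 difference −3.30, SE 0.46, adjusted p = 0.000578), and it stayed called under every alternative. Gabra4, an alpha subunit whose gene lies beside it at chr5:71569749-71658308 on the minus strand with overlapping exons, ran from 0 to 162 CPM with a median of 9.98 against 87.0 to 201 CPM with a median of 128. It was lower in 10 of 11 mice (−4.08, SE 0.79, adjusted p = 0.0122), and its call ended without the 2 eHGT_023h mice (adjusted p = 0.0617) and under voom. Gabrg3 had medians of 14.6 and 83.1 CPM (−2.95, adjusted p = 0.00161) and Gabra5 0.659 and 13.8 CPM (−2.49, adjusted p = 0.00463); both encode subunits of the same receptors, and the call of Gabra5 ended without the 4 eHGT_064h mice (adjusted p = 0.0561). Gabrd, the delta subunit of receptors outside synapses, had medians of 109 and 67.4 CPM and a log2 difference of 1.0 (SE 0.17, adjusted p = 0.00188), on the size limit, so that it fell under that limit without any 1 of 6 mice, and its call also ended without the 4 eHGT_064h mice (adjusted p = 0.132).

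**Figure D5:**
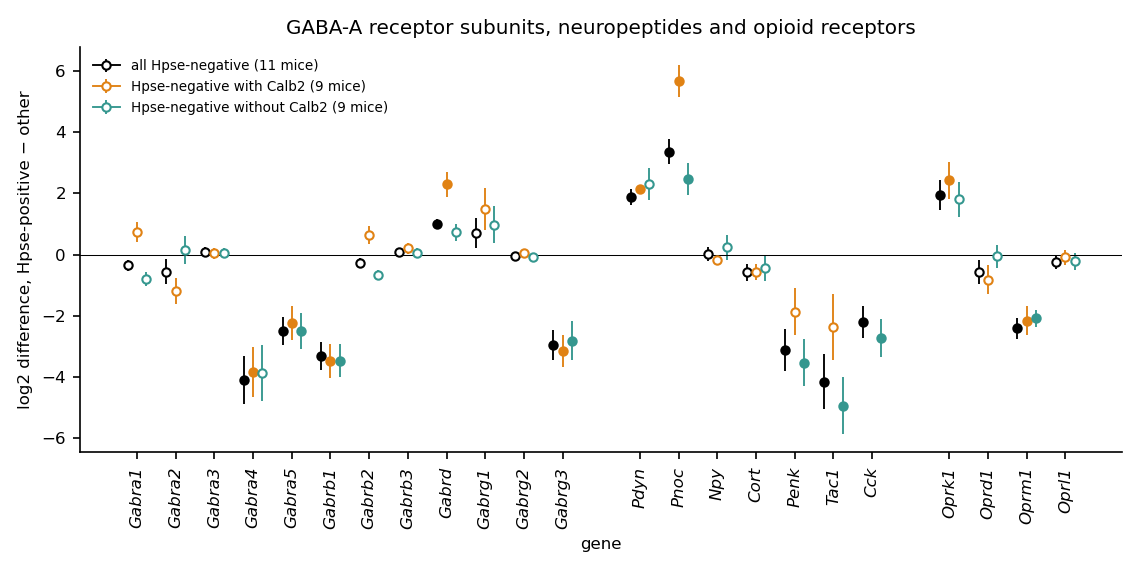
Log2 difference between Hpse-positive cells and 3 sets of other Sst cells for GABA-A receptor subunits, neuropeptides and opioid receptors, with bars of 1 SE and filled points for called genes. The sets share the positive cells, and Gabrb1 is lower and Pnoc higher against each of them.

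Receptors for other transmitters were measured through 25 listed genes, of which 16 were tested, 3 were higher (Chrm2, Chrna4 and Htr1a) and 1 lower (Adra1a), with a median of 0.03. Chrna4, a nicotinic acetylcholine receptor subunit, ran from 24.4 to 95.5 CPM with a median of 43.2 against 8.40 to 38.9 CPM with a median of 22.2 (log2 difference 1.18, SE 0.23, adjusted p = 0.00694), and its call ended without the 4 eHGT_064h mice (adjusted p = 0.183). Adra1a, an alpha-1 adrenergic receptor, had medians of 0.896 and 18.5 CPM (−2.84, SE 0.40, adjusted p = 0.000449), lower in 11 of 11 mice. Htr1a, a serotonin receptor, had medians of 51.1 and 16.1 CPM, and its call ended without any 1 of 7 mice (adjusted p up to 0.0885). No member of the 15 ionotropic and 6 metabotropic glutamate receptor genes tested was called by limma, with 7 and 2 at an unadjusted p under 0.05.

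Of 36 listed enzymes and proteoglycans of heparan sulfate 24 were tested, with 1 higher (Hs3st1), 1 lower (Gpc6), where 1.94% of all genes were called in either direction, 11 at an unadjusted p under 0.05 and a median of −0.16. Gpc6, a glypican, had medians of 7.83 and 20.5 CPM (log2 difference −1.69, adjusted p = 0.0342), and its call ended without any 1 of 9 mice (adjusted p up to 0.0724). The summed level of the list was 831 to 1282 CPM with a median of 991 in positive and 824 to 1160 CPM with a median of 939 in negative cells. None of the 6 perineuronal net genes tested, of 13 listed, was called by limma, and 2 had an unadjusted p under 0.05.

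Among 26 regulators of the medial ganglionic eminence lineage 23 were tested, with 2 higher (Tox and Prdm1), 4 lower (Etv1, Nr2f2, Id2 and Sp9) and a median of −0.01. Tox, a DNA-binding protein with an HMG box, ran from 61.0 to 217 CPM with a median of 140 against 31.3 to 157 CPM with a median of 59.4, higher in 11 of 11 mice (log2 difference 1.16, SE 0.16, adjusted p = 0.000429). Nr2f2, the factor COUP-TFII, had medians of 0 and 34.6 CPM (−2.52, adjusted p = 0.0254), and its call ended without any 1 of 5 mice (adjusted p up to 0.0681). Id2 and Sp9, an inhibitor of basic helix-loop-helix factors and a zinc finger factor, were low in both arms and lost the call without any 1 of 7 and 5 mice.

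Calcium-binding proteins included 2 lower calls among 10 tested of 12 listed, Calb1 and Necab1, and a median of −0.48. Calb1, calbindin, ran from 309 to 1974 CPM with a median of 1075 in positive and from 2113 to 5345 CPM with a median of 2864 in negative cells. The ranges did not overlap (log2 difference −1.94, SE 0.33, adjusted p = 0.00944), but the call ended without the 4 eHGT_064h mice, with equal numbers of cells, and when positive cells needed 50 CPM of Hpse. Potassium channels had 2 lower calls among 16 tested of the Kv3 and fast-spiking list (Kcnab1 and Kcnip2, median −0.09) and 2 among 28 tested of the rest (Kcnh7 and Kcnmb4, median −0.06). Kcnab1, a beta subunit of Kv1 channels, ran from 60.5 to 237 CPM with a median of 96.6 against 187 to 355 CPM with a median of 293 (−1.40, SE 0.15, adjusted p = 4.08e-05) and stayed called under every alternative. Kcnip2, which binds Kv4 channels, had medians of 7.10 and 32.6 CPM, and its call ended without 1 eHGT_064h mouse (adjusted p = 0.0565). None of 16 calcium and HCN channel genes was called by limma, with 3 at an unadjusted p under 0.05.

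Genes of cell contact moved in both directions. Among the cerebellin, neurexophilin and synaptic adhesion genes 20 of 26 were tested, with 1 higher (Syndig1l), 4 lower (Nxph2, Lrrtm2, Lrrtm3 and Ptprt) and a median of −0.03. Lrrtm2, a postsynaptic partner of neurexins, ran from 0 to 27.2 CPM against 32 to 84.0 CPM without overlap (log2 difference −2.24, SE 0.43, adjusted p = 0.00580), and its relative Lrrtm3 had medians of 42.1 and 116 CPM (−1.62, adjusted p = 0.000871). Nxph2, a secreted ligand of alpha-neurexins, had medians of 3.67 and 27.3 CPM (−2.77, adjusted p = 0.00864), and its call ended without the 4 eHGT_064h mice (adjusted p = 0.0756). Of the type II cadherins and contactins 20 of 21 were tested, with 1 higher, 3 lower and a median of −0.05. Cdh7 ran from 101 to 552 CPM with a median of 290 against 46.8 to 198 CPM with a median of 117 (1.44, SE 0.16, adjusted p = 5.04e-05), and Cdh10 had medians of 29.4 and 94.4 CPM (−1.25, adjusted p = 0.00523); both encode cadherins. Cntnap4, of the neurexin superfamily, had medians of 6.58 and 51.5 CPM (−2.79, adjusted p = 0.00162). Axon guidance genes had 3 lower calls among 26 tested of 34 (Sema3a, Sema3d and Ntng1) and a median of −0.60, with Sema3a, a secreted semaphorin, at medians of 43.8 and 107 CPM (−1.40, adjusted p = 0.00604); its call ended without the 4 eHGT_064h mice (adjusted p = 0.0960).

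Reln, the secreted glycoprotein reelin, stood in the list of Lamp5 cell markers but is also made by Sst cells. It ran from 277 to 886 CPM with a median of 572 in positive and from 87.7 to 396 CPM with a median of 189 in negative cells, higher in 11 of 11 mice (log2 difference 1.51, SE 0.18, adjusted p = 0.000196), and it stayed called under every alternative. Lamp5, Cplx3, Lsp1 and Krt73 of the same list were at 0 in the positive cells of every mouse. Ifit1, an interferon-induced gene, ran from 17.1 to 200 CPM with a median of 66.3 against 2.26 to 68.7 CPM with a median of 21.6 (1.68, SE 0.27, adjusted p = 0.00155), and it was the only call among the 5 of 10 listed interferon-induced genes that were tested (median −0.43).

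Markers of other cell types were low or alike in the 2 arms with some exceptions, and their part in the results was not tested. The summed Pvalb cell markers, of which 5 were tested and 2 called lower (Tac1 and Lpl), were 99.3 to 243 CPM with a median of 156 in positive and 173 to 769 CPM with a median of 317 in negative cells, lower in 11 of 11 mice, with Pthlh at 0 in positive cells. Tac1 alone averaged 291 CPM in the negative cells of eHGT_064h and 0.715 CPM in those of eHGT_017h. Its call ended with equal numbers of cells, as given above. Vip cell markers other than Vip summed to medians of 180 CPM in positive and 461 CPM in negative cells. None was called, but both genes tested had an unadjusted p under 0.05. In the comparisons below that leave Calb2 out, 1 gene of this list was tested, with no unadjusted limma p under 0.05. Calb2 reached 10 CPM in 67 negative and 16 positive cells. Vip itself was at 0 in every positive mouse and at 3.52 CPM in its highest negative mouse. The list of caudal ganglionic eminence (CGE) markers had medians of 139 and 184 CPM, with no call among 3 tested. Glutamatergic markers summed to 51.7 to 151 CPM in positive and 43.9 to 158 CPM in negative cells, with Slc17a6, Neurod2 and Fezf2 at 0 in the positive cells of every mouse. The 8 vascular markers summed to 0 to 5.13 CPM in positive and 0 to 16.6 CPM in negative cells, with Cldn5 and Kcnj8 at 0 in both arms, and the 1 called lower, Dcn, a proteoglycan, was at 0 in every positive mouse. Astrocyte markers summed to 0 to 115 CPM and 6.86 to 104 CPM, with Aqp4, Aldh1l1 and Gfap at 0 in positive cells, and microglial markers to 0 to 12 and 0 to 2.57 CPM. Oligodendrocyte markers reached 3489 CPM in positive and 3343 CPM in negative cells, with medians of 41.9 and 34.4 CPM. No gene of the astrocyte or oligodendrocyte lists was called by limma, and none had an unadjusted p under 0.05.

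Hpse-negative Sst cells are themselves mixed, and 67 of the 166 held at least 10 CPM of Calb2, the calretinin gene. Set against these alone (9 mice, 49 positive and 50 negative cells), Hpse-positive cells differed in 163 of 12296 genes (1.33%), 80 higher (0.651%) and 83 lower (0.675%), and the ranges of 33 genes (0.268%) did not overlap. Pnoc ran from 62.0 to 312 CPM against 0 to 35.7 CPM with a median of 0.306, without overlap (log2 difference 5.66, SE 0.52, adjusted p = 1.89e-05). Pdyn ran from 1915 to 3725 CPM with a median of 2337 against 474 to 775 CPM with a median of 537, also without overlap (2.14, SE 0.11, adjusted p = 7.36e-09). Npas1, a basic helix-loop-helix factor, ran from 39.2 to 146 CPM with a median of 82.4 against 0 to 35.1 CPM with a median of 7.29 (3.99, SE 0.45, adjusted p = 8.83e-05). Over single cells with Calb2, the mean of Npas1 was 21.3 CPM in positive and 10.4 CPM in negative cells. Over those without Calb2 it was 107 and 122 CPM. Such means are over cells pooled from all mice and were not tested. The rule also named Syndig1l, Syt6, Car4, Chrm2, Rasgrp1 and Layn as higher, with log2 differences of 5.0, 4.55, 3.78, 3.59, 3.50 and 3.47. Only the negative arm was limited to cells with Calb2, so the arms differ in Calb2 as well as in Hpse. Over single cells with Calb2, positive and negative means were 1.98 and 2.17 CPM for Pnoc, 1.82 and 1.66 for Syndig1l. They were 3.34 and 2.30 for Syt6, 1.59 and 1.20 for Car4, 0.523 and 17.9 for Chrm2, and 1002 and 540 for Pdyn. The means of these genes were not tested either.

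In the same comparison Etv1 ran from 0 to 13.9 CPM in positive and from 43.3 to 134 CPM in negative cells (log2 difference −5.60, SE 0.44, adjusted p = 4.57e-06). Tnni3k, a kinase named for its binding to cardiac troponin I, had medians of 4.85 and 88.8 CPM (−4.47, adjusted p = 0.000716), and Calb1 ran from 309 to 1974 CPM against 3064 to 6527 CPM without overlap (−2.41, SE 0.35, adjusted p = 0.00960). Necab1, at 0 in every positive mouse, ran from 0 to 148 CPM with a median of 45.5, and Prkg2 and St8sia4 were again among the genes named. Gabrd was higher with a log2 difference of 2.30 (SE 0.40, adjusted p = 0.00468), at medians of 109 and 32.8 CPM, and Chrna4 with one of 2.15 (SE 0.33, adjusted p = 0.00148). Over single cells with Calb2, the mean of Gabrd was 30.1 CPM in positive and 35.8 CPM in negative cells. Without Calb2 it was 163 and 73.2 CPM. Gabrb1 was lower (−3.47, SE 0.57, adjusted p = 0.00305). B2m, the light chain of class I major histocompatibility molecules, ran from 64.6 to 157 CPM with a median of 130 against 110 to 390 CPM with a median of 293 (−1.01, SE 0.12, adjusted p = 8.83e-05), and was lower in 9 of 9 mice; it fell under the size limit without any 1 of 3 mice, of which 2 carried eHGT_023h and 1 carried eHGT_064h.

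Against the 99 Hpse-negative cells without Calb2 (9 mice, 53 positive and 80 negative cells), 218 of 12420 genes were called (1.76%), 76 higher (0.612%) and 142 lower (1.14%), and the ranges of 29 (0.233%) did not overlap. Averaging log2 values over cells gave 164 higher and 92 lower. Syt6 had medians of 35.9 and 1.59 CPM (log2 difference 3.46, SE 0.52, adjusted p = 0.00164) and Npnt 43.5 and 6.69 CPM without overlap (2.90, SE 0.37, adjusted p = 0.000548). Col11a1, a fibrillar collagen chain, had medians of 30.5 and 0 CPM (3.42, adjusted p = 0.00113). Prokr2, a prokineticin receptor, had medians of 41.9 and 10 CPM (3.02, adjusted p = 0.00411), and Ackr3 30.8 and 5.0 CPM (3.18, adjusted p = 0.000415). Ifit1 and Sowahb were named as well, with log2 differences of 3.12 and 2.66. Pnoc had medians of 98.6 and 37.4 CPM (2.46, SE 0.52, adjusted p = 0.0250), and its call ended without 1 hDLXI56i mouse or 1 eHGT_017h mouse (adjusted p up to 0.0542).

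Pdyn was not called in this comparison. It ran from 1375 to 3725 CPM with a median of 2506 in positive and from 133 to 2562 CPM with a median of 311 in negative cells, higher in 9 of 9 mice (log2 difference 2.32, SE 0.52, adjusted p = 0.0616). The negative mice spread more widely here than among cells with Calb2. Tox (2.09, SE 0.20, adjusted p = 5.80e-05), Cdh7 (1.99, SE 0.21, adjusted p = 0.000111) and Ptprd, a receptor phosphatase of synapse formation (1.58, SE 0.23, adjusted p = 0.00118), were higher in 9 of 9 mice, and the ranges of Ptprd did not overlap at 94.0 to 240 against 13.1 to 91.9 CPM.

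Among the lower genes of that comparison, Necab1 was at 0 in every positive mouse against 14.8 to 219 CPM with a median of 53.7. Il1rapl2, a relative of the interleukin-1 receptor accessory protein, ran from 0 to 0.420 CPM against 4.28 to 65.6 CPM with a median of 34.7 (log2 difference −4.86, SE 0.45, adjusted p = 4.33e-05). Etv1 ran from 0 to 13.9 CPM against 19.9 to 179 CPM (−5.06, SE 0.46, adjusted p = 4.33e-05), and neither range overlapped. Zmat4, a zinc finger gene, had medians of 0 and 88.1 CPM (−4.64, adjusted p = 5.80e-05). Fxyd6, a regulator of the sodium pump, had medians of 2.21 and 237 CPM (−4.52, adjusted p = 0.0201), and its call ended without 1 eHGT_017h mouse or 1 eHGT_064h mouse (adjusted p up to 0.0576). Nr2f2 (−3.52, SE 0.63, adjusted p = 0.00515), Oprm1 (−2.08, SE 0.27, adjusted p = 0.000597) and Grm3, a metabotropic glutamate receptor (−2.29, SE 0.45, adjusted p = 0.00972), were lower. The comparisons with and without Calb2 share their positive cells, so their values are set side by side only.

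The Hpse-positive cells were not uniform, and Calb2 marked a part of them. It was at or above 10 CPM in 16 of the 79, from 11 mice and 5 enhancers, and below it in 63, from 18 mice and 7 enhancers. These are counts of cells with no test. The 16 had a median Hpse of 42 CPM and the 63 one of 169 CPM, and 11 of the 20 positive cells with Hpse under 50 CPM held Calb2 against 5 of the 59 with more. Pnoc reached 10 CPM in 2 of 16 cells with Calb2 and 52 of 63 without, Syt6 in 2 and 46, Chrm2 in 0 and 40, and Syndig1l in 1 and 34. Etv1 did so in 7 of 16 with Calb2 and 1 of 63 without. Pdyn was present in 16 of 16 and 59 of 63, with medians of 1076 and 2731 CPM, and Calb1 in 16 and 44, with medians of 3557 and 264 CPM. In the 67 Hpse-negative cells with Calb2, Etv1 reached 10 CPM in 54, Pnoc in 3 and Cbln4 in 63.

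Cbln4 and Sema3c, whose products are a cerebellin of synapse formation and a secreted semaphorin, divide types of Hpse cells in catalogues of this cortex. Cbln4 reached 10 CPM in 58 of the 79 cells, in all 16 with Calb2 and in 42 of 63 without. Sema3c did so in 6, all without Calb2, and 2 cells held both and 17 neither. Among cells without Calb2, Sema3c reached 10 CPM in 9.52% of positive and in 17.2% of negative cells (17 of 99). It did so in 0 of the 67 negative cells with Calb2. Between arms Cbln4 ran from 15.2 to 477 CPM with a median of 188 against 77.4 to 377 CPM with a median of 165 (log2 difference −0.10, SE 0.34, adjusted p = 0.938). Of the 3 genes Pdyn, Syndig1l and Prdm1, 25 positive cells held all at 10 CPM or more, 32 held 2, 18 held 1 and 4 held none, against 8, 22, 79 and 57 of the negative cells.

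Some genes varied strongly from cell to cell among the 79. The SD of log2(CPM + 1) over cells was 4.50 for Calb1, which reached 10 CPM in 60 cells, 4.09 for Akr1c18, a steroid-metabolising enzyme present in 38, and 4.08 for Ndn, the imprinted gene necdin, in 59. It was 3.96 for Olfm3, an olfactomedin, in 57, 3.75 for Lypd6, a modulator of nicotinic receptors, in 34, and 3.69 for Cbln4. The median over the 6627 genes compared was 1.62. Lypd6 reached 10 CPM in 2 of 16 cells with Calb2 and 32 of 63 without, and Olfm3 in 16 and 41, whereas Ndn was present in 11 and 48. These shares differed by mouse as well, from 0 to 100% of the positive cells of a mouse for Lypd6 and from 20 to 100% for Ndn.

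Few genes passed a test across enhancers within the Hpse-positive cells. Over 12 mice of eHGT_017h, eHGT_023h, eHGT_064h and eHGT_079h with at least 3 positive cells, limma called 1 of 12175 genes (0.00821%), while 1033 had an unadjusted p under 0.05. That gene, Khdrbs3, which encodes a splicing regulator and is named because it was the only call, was 28.2 ± 8.28 CPM (SD) in eHGT_017h, 104 ± 29.3 in eHGT_023h, 125 ± 33.7 in eHGT_064h and 127 ± 23.2 in eHGT_079h (adjusted p = 0.0424). The eHGT_017h mice, all of letter G, were low and the other 3 enhancers alike. Between 0 and 4 genes were called when single mice were left out, with 0 without any 1 of 5 mice (2 of eHGT_017h, 2 of eHGT_064h and 1 of eHGT_079h).

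The difference between arms could be compared between eHGT_017h (3 mice, all of letter G) and eHGT_064h (4 mice, of both letters). Of 12338 genes 1 passed the limma test of the interaction (0.00811%), Tac1, and 628 had an unadjusted p under 0.05. Tac1 was 0 and 0.313 CPM on average in the positive cells of eHGT_017h and eHGT_064h, and 0.715 and 291 CPM in the negative cells (log2 difference between the contrasts −7.06, adjusted p = 0.0495). The positive cells held almost no Tac1 under either enhancer, and the negative cells differed. Other values differed in size without passing. The log2 difference of Pdyn was 0.86 in eHGT_017h (0.51 to 1.13 over mice) and 2.66 in eHGT_064h (1.54 to 3.46), with positive means of 2781 and 2682 CPM and negative means of 1561 and 459 CPM. That of Syt6 was 4.81 and 2.66, with positive means of 56.9 and 18.5 CPM, and that of Etv1 −4.29 and −5.53.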

How the data were processed

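The deposited table gives 45768 genes in 1483 single cells of 33 mice as CPM, which the authors scaled so that each cell sums to 1000000; per the submitters' processing notes reads were aligned with STAR to mm10, and no counting tool is named there. To within 0.01 reads, 100% of values above 0 were whole multiples of 1 read, which gave the depth of each cell. Cells were mapped to mouse and enhancer through their labels, gated as described, and averaged per mouse and arm where both arms held at least 3 cells. Genes with a mean under 2 CPM and the 6 gate genes were left out (also Calb2 where it chose the cells). log2(mean CPM + 1) was fitted with limma 3.58.1 (R 4.3.3, trend and robust, statmod 1.5.0) with mouse as a block, because both arms come from the same animal; the correlation of both arms' deviations within a mouse was 0.0445 to 0.19. Genes were called at an adjusted p (Benjamini-Hochberg over all genes tested) below 0.05 with a log2 difference of 1 or more in size. The limma p-values between arms rest on how the difference between arms varied across mice, with variances moderated over genes. Those across enhancers and of shares rest on the spread between mice.

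Shares and depth were tested by permutation over mice (100000 resamples or exact; scipy 1.17.1, numpy 2.4.6, pandas 2.3.3; figures with matplotlib 3.10.9). Genes were named by a rule, the 15 largest rises and 10 largest falls (8 and 5 against the Calb2 sets) among called genes with at least 20 CPM in the higher arm and the same direction in 80% of mice, leaving out gate genes, Xist, Tsix, Y-linked, mitochondrial and ribosomal genes, pseudogenes and unofficial symbols; list genes follow their lists. Gene positions and exons are from GENCODE on GRCm38, promoter windows from RefSeq. The cells and gene lists were chosen with earlier results of these data known. The alternatives were pseudocounts of 0.1 and 10, no filter, other minimum cells per mouse, no block, averaging of log2 values, voom on the recovered reads, an Hpse limit of 50 CPM, an Sst limit of 3000 CPM, cells of at least 300000 reads, and leaving out each mouse or enhancer. No doublet caller was run. The fitting script was tested on simulated data.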

Additional observations from a re-analysis of the deposited data

Results flagged for a closer look

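In the comparison with Hpse-negative cells without Calb2, the log2 difference of Il1rapl2 was −1.90 in 1 mouse of eHGT_064h, while the other 8 mice lay between −4.65 and −5.75; the gap took 0.714 of the range over 9 mice. It was the only one of 27 such tests to stand out, and chance alone gives about 1 in 20.

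The difference between arms of Tac1 was larger in eHGT_064h than in eHGT_017h, by −7.06 on the log2 scale (limma, adjusted p = 0.0495), with almost no Tac1 in the positive cells of either.

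Hpse reached 10 CPM in 9 cells outside the gates used here, of which 6 held Slc17a7, 2 held Pvalb and 1 held Vip.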

How the results depend on the processing

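The 240 genes called between Hpse-positive and Hpse-negative cells became 124 with a pseudocount of 10, 140 with no filter, 121 with at least 5 cells per mouse and arm (6 mice), 137 without eHGT_017h, 72 without eHGT_064h and 174 to 234 without single mice. Settings chosen after seeing the data gave 124 with equal numbers of cells, 63 in letter G and 42 in letter J. The 163 genes called against cells with Calb2 became 85 with no filter, 59 with at least 5 cells (4 mice), 240 with at least 1 cell (16 mice), 204 with averaged log2 values and 121 to 155 without single mice. The 218 genes called against cells without Calb2 became 139 with a pseudocount of 10, 126 with no filter, 143 with at least 5 cells, 119 with at least 1 cell, 142 with equal numbers of cells and 148 to 218 without single mice. Across enhancers limma called 0 genes with a pseudocount of 0.1, with no filter and with at least 5 cells (1019, 1163 and 641 at an unadjusted p under 0.05), and 0 to 4 without single mice. Where fewer mice or enhancers remain the tests have fewer samples; the cause of the other moves was not tested.

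Without the replicate block, which ignores that both arms come from 1 mouse, the calls were 198, 153 and 173. The correlation of deviations was highest with a mouse's own other arm in 7 of 11 mice.

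The share test across enhancers gave p = 0.485 with at least 10 gated cells per mouse, where eHGT_079h drops out, and p = 0.0108 to 0.744 without single mice. With at least 10 cells the differences of eHGT_017h and eHGT_064h turned to 4.09 and 4.65 percentage points, and that of eHGT_017h was −10.1 to 1.49 points without single mice. The difference of eHGT_079h was 43.6 points with at least 3 gated cells, where it passed.

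Over the 178 genes followed, 4250 alternative values kept the call in 3264 cases and ended it in 980, and none turned direction. A planned count model on recovered reads was not run; voom was run in its place. The number of cells per mouse, 3 to 9 positive, limits these means.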
